A study of Mus musculus with 12 samples.

Results

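Oxidative phosphorylation genes encoded in the nucleus were taken by symbol: names that begin with Nduf and a subunit letter (a, b, c, s or v) with a number, Sdha to Sdhd, and names that begin with Uqcr, Cox4 to Cox8 or Atp5. This gave 84 of the 34745 genes in the table, 37 for complex I, 4 for complex II, 8 for complex III, 18 for complex IV and 17 for complex V, spread over 19 chromosomes with 3 genes on the X. Another 4 matching entries, named as pseudogenes or antisense, were left out. The pattern also takes in Atp5s and Atp5sl, which are not core subunits, and Ndufa4, whose protein is now assigned to complex IV, and it leaves out the subunit genes Cyc1 and Ndufab1. The members were chosen by name and not by any measured value.

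The genes were followed in bulk RNA sequencing of the medial prefrontal cortex (mPFC), a cortical area involved in how pain is appraised and felt. Chronic constriction injury (CCI) is a model of neuropathic pain in which the sciatic nerve is tied loosely. CCI mice gave 4 libraries of the right mPFC, called contralateral, and 4 of the left mPFC, called ipsilateral, the sides being named relative to the operation. Naive mice gave 4 libraries with no hemisphere stated. All mice were male and of wild-type genotype, CCI mice were sampled at day 28 after surgery, and naive mice after habituation of the same length. The labels give no strain, age, sham surgery or pooling of animals. A left and a right library that share a number (1 to 4) in their code were taken as both sides of the same animal, although no label states this. The p-values measure the spread between these libraries.

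Oxidative phosphorylation is the chain of inner mitochondrial membrane enzymes that makes most of a neuron's ATP. Complexes I and II take electrons from NADH and succinate, complex III passes them to cytochrome c, complex IV passes them to oxygen, and complex V uses the proton gradient to make ATP. The mitochondrial genome encodes a few subunits of complexes I, III, IV and V, and all others are nuclear genes whose proteins are imported, so their transcripts are often followed as one group. In cortex, fast-spiking parvalbumin interneurons are known for a high respiratory capacity.

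The libraries held 16.1 to 20.6 M counts (M, mega). The mPFC label was checked with cortical excitatory neuron genes, in CPM (counts per M of a library size scaled by a normalisation factor). The vesicular glutamate transporter gene Slc17a7 lay between 1658 and 2003 CPM and Camk2a between 2148 and 3314 CPM over the 12 libraries. The library contralateral 1 stood apart in 8 striatum markers, whose summed level was 394 CPM there and at most 228 CPM in the other 11 libraries. Its level of the dopamine receptor gene Drd2 was 8.77 CPM, against at most 1.62 CPM elsewhere. Counts of the oxidative phosphorylation genes by direction, in all and by complex, are also given without it for contralateral against naive and against ipsilateral libraries. They are not given without it where both hemispheres are summed.

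Transcript levels between genes were compared with the deposited FPKM, a unit that scales fragments by a length and by library size. The length used was unknown and did not always follow the exons. In contralateral libraries, 18.5 CPM and 44.5 FPKM for Ndufa1 matched its 419 exonic bases. For Atp5g1, 35.5 CPM and 3.65 FPKM implied a length well above its 4912 exonic bases. FPKM levels, medians, ranks and shares between genes depend on these lengths. Over the 12 libraries 80 of the 84 genes averaged more than 1 FPKM and 9 averaged more than 100 FPKM. The median gene stood at 21.7 FPKM in complex I, 46.4 FPKM in complex II, 38.8 FPKM in complex III, 27.7 FPKM in complex IV and 22.2 FPKM in complex V. Within complexes I, IV and V the genes ranged far more widely than the medians of the complexes. Complex IV held both ends, from Cox8c, which had a count of 0 in all 12 libraries, to Cox8a at 499 ± 29.2 FPKM (SD, n = 12).

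Cox8a encodes the small subunit VIII of cytochrome c oxidase in its ubiquitous form. Next came the complex IV genes Cox6b1 at 226 FPKM and Cox6a1 at 191 FPKM, then Atp5b at 147 FPKM and Atp5a1 at 140 FPKM, which encode the catalytic β and the α subunit of the ATP synthase head. Ndufb9, an accessory subunit of the membrane arm, led complex I with 132 FPKM, followed by Ndufa8 with 77.8 FPKM. Sdha, the flavoprotein that oxidises succinate, led complex II with 81.5 FPKM, ahead of its membrane anchor Sdhd with 57.2 FPKM. Complex III was led by Uqcrfs1, the Rieske iron-sulfur protein, with 69.8 FPKM and by the core protein gene Uqcrc2 with 56.9 FPKM. Subunits are present in fixed ratios in an assembled complex. Their transcripts differed in FPKM: within complex I, Ndufa8 stood at 77.8 FPKM and Ndufv1 at 16.7 FPKM. Each had 0 overlapped exonic bases and 0 shared 50-base words. In CPM, which is not scaled by length, the order was reversed. The mean over the CCI libraries was 66.5 CPM for Ndufa8 and 97.8 CPM for Ndufv1, so this difference depends on the lengths behind the FPKM. Ndufb9 stood at 132 FPKM and the accessory subunit gene Ndufb4 at 2.70 FPKM, both with uncertain counts. Ndufb4 has 18.3% of its 50-base words shared with other genes. Ndufb9 has 15.6% shared and 19.5% of its exonic bases overlapped by Gm49356 on the same strand.

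**Figure D1:**
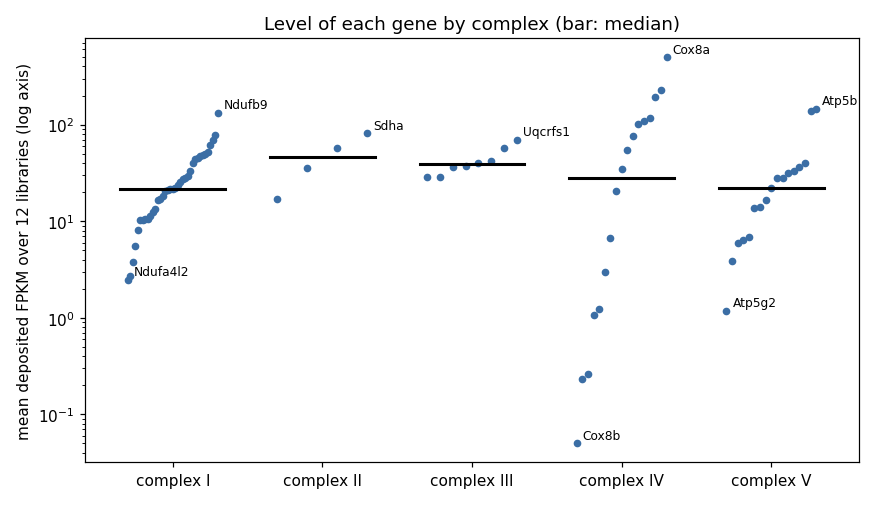
Deposited FPKM of each gene on a log axis, grouped by complex I to V; a point is a gene's mean over the 12 libraries and a bar the median of the complex. Cox8a is highest at 499 FPKM, Cox6b2, Cox7b2 and Cox8b of complex IV stay under 1 FPKM, and Cox8c, at 0, cannot be drawn.

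Upstream sequence is shown for 4 genes. These are the complex IV genes Cox8a and Cox6a1, because they are among the transcripts highest in FPKM, and one gene each of complexes III and V that carries a short known motif. All lie on the minus strand in the RefSeq table of build GRCm38.p6 and end at the base before the start that RefSeq gives. GENCODE starts some of these genes further upstream, so that the last 23 bases of the Cox6a1 window, 9 of Uqcr11 and 4 of Atp5e are untranslated exon there, and 0 of Cox8a. The windows are Cox6a1 at chr5:115348959-115349158, Uqcr11 at chr10:80406822-80406921, Atp5e at chr2:174464102-174464251 and Cox8a at chr19:7217617-7217766. Capitals mark a match, on either strand, to the NRF1 motif, which is the first stretch of 10 capitals in the Cox6a1 line, the ETS family motif CCGGAAG, which reads CTTCCGG on the other strand, or the YY1 motif AAGATGGCG, and the matches shown do not overlap each other.
Cox6a1: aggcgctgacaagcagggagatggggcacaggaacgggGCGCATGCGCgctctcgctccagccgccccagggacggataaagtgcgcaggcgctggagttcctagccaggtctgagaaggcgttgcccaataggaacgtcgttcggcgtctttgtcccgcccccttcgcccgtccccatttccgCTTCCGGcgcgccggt
Uqcr11: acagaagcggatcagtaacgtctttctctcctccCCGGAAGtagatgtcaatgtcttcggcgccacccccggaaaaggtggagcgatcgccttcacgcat
Atp5e: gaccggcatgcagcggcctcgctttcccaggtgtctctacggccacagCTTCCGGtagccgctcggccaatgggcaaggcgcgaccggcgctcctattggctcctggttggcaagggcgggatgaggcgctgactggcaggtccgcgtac
Cox8a: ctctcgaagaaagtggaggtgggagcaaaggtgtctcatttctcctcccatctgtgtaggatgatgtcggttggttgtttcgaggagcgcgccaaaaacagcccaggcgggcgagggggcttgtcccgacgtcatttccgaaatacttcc

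NRF1, ETS-family GABP and YY1 are textbook regulators of respiratory chain genes. A promoter was listed for 69 of the 84 genes. Within 250 bases upstream the NRF1 letters were found in 4 of these 69 genes (5.8%) and in 0.88% of 27025 genes, the ETS letters in 12 (17.39%) and in 7.83%, and the YY1 letters in 2 (2.9%) and in 0.71%. At least 1 of the 3 stood in 16 of the 69 genes (23.19%) and in 9.1% of all genes. A match says only that the letters are there. The Cox8a window, of the transcript highest in FPKM, held none of the 3, and the Cox6a1 window held both the NRF1 and the ETS letters.

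Several subunits exist as isoform pairs, one ubiquitous and one restricted to certain tissues. The tissue isoforms were minor in the mPFC: of the FPKM of each pair, Cox4i2 took 1.11 ± 0.43% in contralateral, 0.79 ± 0.18% in ipsilateral and 1.02 ± 0.18% in naive libraries (SD, n = 4 each). Cox6a2, a heart and muscle form that parvalbumin interneurons also express, took 3.16 ± 0.52% in contralateral, 3.41 ± 0.43% in ipsilateral and 3.53 ± 0.51% in naive libraries. Ndufa4l2, a homologue of Ndufa4 that is expressed in brain pericytes, took 7.09 ± 1.5%, 5.90 ± 0.43% and 7.98 ± 1.63% in contralateral, ipsilateral and naive libraries. The Ndufa4l2 shares were 5.36 to 6.25% in ipsilateral and 6.48 to 10.3% in naive libraries, and the contralateral ones overlapped both. They rest on 31 to 59 counts of Ndufa4l2 per library, and in CPM its ipsilateral and naive libraries overlapped. No test was made of these shares, and how often shares of other genes part in this way was not counted. Cox7a1, of heart and skeletal muscle, took 1.35 ± 0.59% in contralateral, 0.91 ± 0.24% in ipsilateral and 1.30 ± 0.40% in naive libraries, and Cox6b2, best known from testis, at most 0.18% in any library.

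The c ring of ATP synthase is built from 1 protein sequence encoded by 3 genes. Atp5g3 supplied most of their FPKM, 88.1 ± 1.1% in contralateral, 87.5 ± 0.9% in ipsilateral and 87.8 ± 0.5% in naive libraries (SD, n = 4 each). Atp5g1 supplied 8.59 to 11.3% and Atp5g2 1.67 to 3.77% over the 12 libraries. These shares depend on the lengths behind the deposited FPKM. In CPM, which is not scaled by length, the genes lay closer: the mean over the CCI libraries was 107 CPM for Atp5g3, 37.9 CPM for Atp5g1 and 2.50 CPM for Atp5g2. The order Atp5g3, Atp5g1, Atp5g2 held in every library, with the limit that 38.3% of the 50-base words of Atp5g2 recur in other genes. Cox8b, the muscle form of subunit VIII, had 0 to 2 counts per library and Cox7b2, the testis homologue of Cox7b, 1 to 5 counts, too few to test. Cox8c and Cox7a1 were the other untested members in the fit of the 12 libraries.

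The oxidative phosphorylation genes were steady between libraries. Over the 12 libraries the SD of log2 CPM had a median of 0.10 for the 80 tested members and 0.16 for all 15808 tested genes, and 65 of the 80 members stayed under 0.15. The median member was more abundant, at 5.92 against 4.32 on the log2 CPM scale, and this was not adjusted for. Uqcrq, a small complex III subunit, was the steadiest (SD 0.04), with 66.9, 70.1, 69.8 and 68.9 CPM in contralateral, 71.0, 66.3, 69.8 and 69.7 CPM in ipsilateral, and 71.0, 73.8, 66.5 and 70.2 CPM in naive libraries 1 to 4. All 3 groups overlap. Cox6b2 was the most variable (SD 0.48) at 0.23 to 1.06 CPM.

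**Figure D2:**
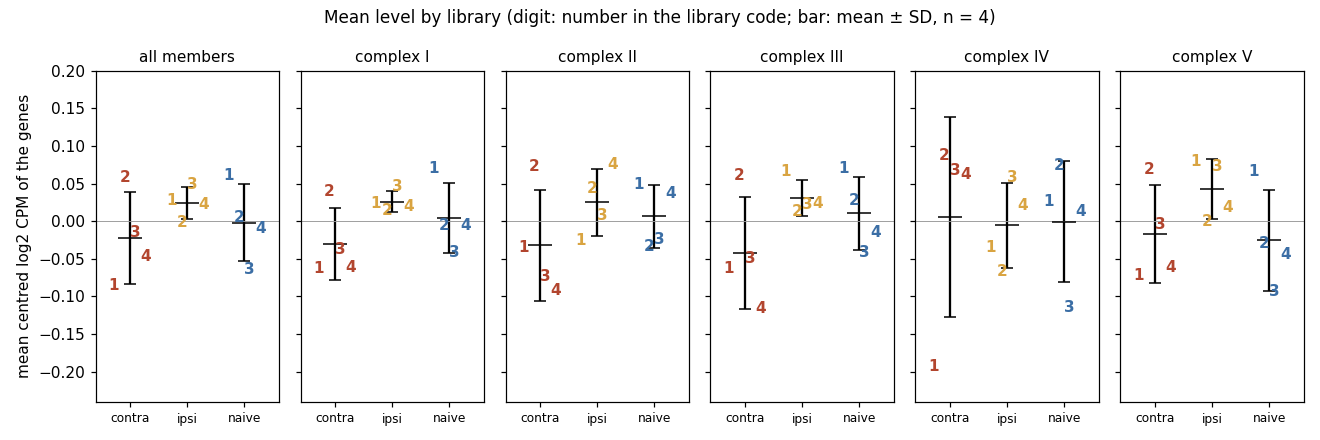
Mean centred log2 CPM of the members of each complex in each library, with contralateral libraries first, then ipsilateral, then naive; a digit is a library and the bar the mean ± SD of 4. Contralateral 1 is the farthest point, at -0.19 in complex IV, where the other contralateral libraries are at 0.06 to 0.09.

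The counts of all 84 genes together made up 0.746 ± 0.030% of the total in contralateral, 0.777 ± 0.0057% in ipsilateral and 0.762 ± 0.026% in naive libraries (SD, n = 4 each). Their mean centred log2 CPM was -0.09, 0.06, -0.01 and -0.05 in contralateral libraries 1 to 4, 0.03, 0.00, 0.05 and 0.02 in ipsilateral, and 0.06, 0.00, -0.06 and -0.01 in naive. The ipsilateral libraries were close to each other and the contralateral ones spread most, and the 3 groups overlapped. In bulk tissue, fewer cells of a type and less RNA per cell cannot be told apart.

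The first comparison set the contralateral mPFC against that of naive mice. None of the 80 tested members passed edgeR's quasi-likelihood test at a Benjamini-Hochberg adjusted p under 0.05, nor did any of the 15808 genes tested (0%), and DESeq2 and limma voom also called 0 members. At an unadjusted p under 0.05, 2 members were higher and 4 lower, beside 1.92% and 1.86% of all genes. The members' median log2 fold change was -0.02 with a median standard error (SE) of 0.07, all-gene median 0.00. A positive value stood at 29 of the 80 members, beside 50.1% of all genes, and at 39 of the 81 members tested without contralateral 1, where the median was -0.00.

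Atp5c1, the γ subunit in the central stalk of ATP synthase, had the smallest p of the members. Its level was 119, 136, 120 and 113 CPM in contralateral libraries 1 to 4, against 111, 102, 108 and 102 CPM in naive libraries. Every contralateral library lay above every naive one. The log2 fold change was 0.21 (SE 0.07; edgeR adjusted p = 1.00). Libraries that do not overlap in the higher direction were found for 2 members, Atp5c1 and Cox7c, beside 1.04% of all genes, and in the lower direction for 1 member, Uqcrfs1, beside 1.16%.

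Uqcrfs1 had 90.6, 96.2, 91.7 and 83.9 CPM in contralateral libraries, against 104, 97.2, 98.1 and 98.4 CPM in naive libraries. The highest contralateral library, number 2, was below the lowest naive one, also number 2. Its log2 fold change was -0.14 (SE 0.05; edgeR adjusted p = 1.00). Cox7c, a small complex IV subunit, had 5.26, 5.75, 5.04 and 6.53 CPM in contralateral libraries, against 4.96, 5.0, 3.71 and 4.75 CPM in naive libraries (log2 fold change 0.29, SE 0.13). The groups all but met, at contralateral 3 and naive 2, and 22.1% of the 50-base words in the exons of Cox7c recur in other genes, so its count is uncertain.

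Ndufa12, an accessory subunit of the matrix arm of complex I, had the largest difference in size, a log2 fold change of -0.37 (SE 0.14; edgeR adjusted p = 1.00). It stood at 19.9, 23.8, 19.1 and 27.0 CPM in contralateral libraries, against 34.3, 25.0, 31.2 and 25.8 CPM in naive libraries. Contralateral 4 lay above naive 2 and naive 4, so the groups overlap, and 17.7% of its 50-base words recur in another gene. Ndufb5, an accessory subunit of the membrane arm, stood at -0.23 (SE 0.08). Of the other members of smallest p, Atp5o, the stalk protein that joins head and membrane part, stood at -0.19 (SE 0.08), Uqcrb, the ubiquinone-binding protein of complex III, at -0.11 (SE 0.07) and Cox7a2, the ubiquitous form of its subunit, at -0.09 (SE 0.05). In Atp5o 47.9% of the exonic bases are overlapped by 3 other genes, most by the antisense gene Gm15976, and 14.0% of its 50-base words recur elsewhere, so its count is uncertain. Uqcrb shares 25.4% of its words, and its value was -0.06 without contralateral 4 and -0.18 without contralateral 2. In 75 of the 80 members the log2 fold change was smaller than 0.2 in size.

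By complex, a negative log2 fold change stood at 25 of 37 members of complex I (median -0.02), all 4 of complex II (-0.04), 6 of 8 of complex III (-0.07), 6 of 14 of complex IV (0.01) and 10 of 17 of complex V (-0.02). Without contralateral 1 the counts were 20 of 37 (median -0.00), 3 of 4 (-0.04), 6 of 8 (-0.05), 4 of 15 (0.06) and 9 of 17 (-0.00) for complexes I to V. Markers of other cells stood beside this. The 10 oligodendrocyte markers were positive in 10 of 10 (median 0.31), with 2442 to 5490 CPM summed in contralateral and 2691 to 3526 CPM in naive libraries. Their mean centred log2 CPM was 0.55, 0.70, -0.41 and -0.46 in contralateral 1 to 4 and -0.37 to 0.07 in naive libraries. The 8 striatum markers were positive in 8 of 8 (median 0.29), with 183 to 394 CPM in contralateral and 197 to 228 CPM in naive libraries. Their mean centred log2 CPM was 1.30 in contralateral 1 and -0.09, -0.13 and -0.20 in contralateral 2 to 4, against -0.24 to 0.02 in naive libraries. The 7 oligodendrocyte precursor markers were positive in 7 of 7 (median 0.14). The part of these markers in the members' values was not tested.

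**Figure D3:**
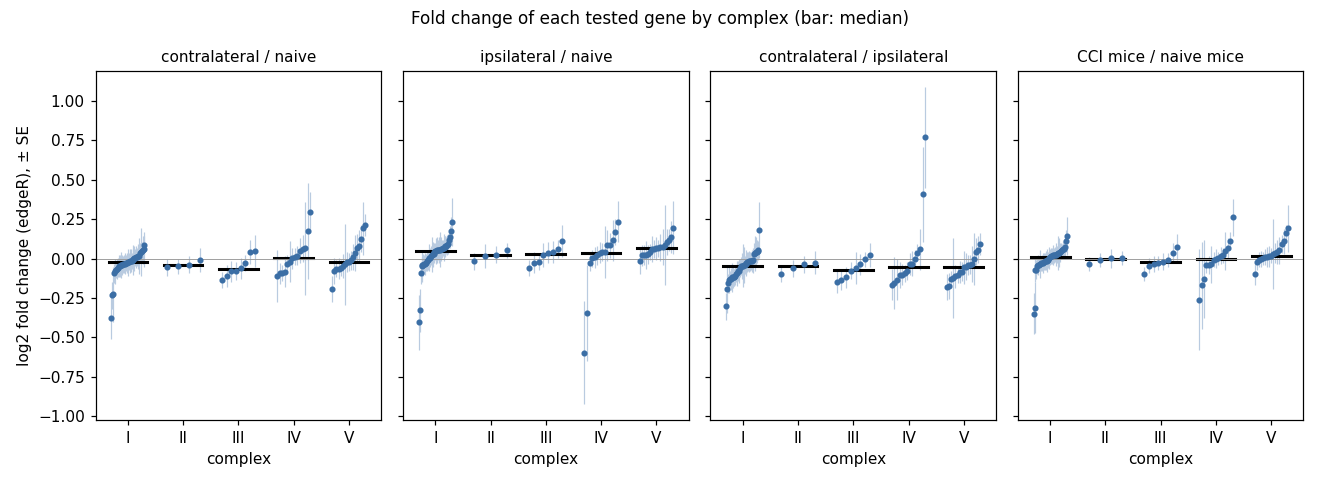
Log2 fold change of each tested member, grouped by complex, in the 4 comparisons: contralateral against naive, ipsilateral against naive, contralateral against ipsilateral, and CCI mice against naive mice; a point is a gene with its SE and a bar the median of the complex. Most points lie within 0.2 of 0, and no gene passed the edgeR test at an adjusted p under 0.05.

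The ipsilateral mPFC was then set against the same naive libraries. Again 0 of 80 members and 0% of all 15808 genes passed edgeR's test, and DESeq2 and limma voom called 0 members. At an unadjusted p under 0.05, 1 member was higher and 2 were lower, beside 1.87% and 2.96% of all genes. A positive log2 fold change stood at 61 of 80 members, beside 49.9% of all genes, with a median of 0.04 (median SE 0.07) for the members and 0.00 for all genes. By complex, it was positive in 26 of 37 members of complex I (median 0.05), 3 of 4 of complex II (0.02), 5 of 8 of complex III (0.03), 11 of 14 of complex IV (0.04) and 16 of 17 of complex V (0.07).

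Libraries without overlap were found for 3 members in the higher direction, Ndufc2, Ndufv1 and Cox7b, beside 1.95% of all genes, and for 0 members in the lower direction, beside 2.77%. Ndufv1 is the flavoprotein at which complex I takes up electrons from NADH. It had 104, 98.7, 99.7 and 107 CPM in ipsilateral libraries, against 95.7, 91.8, 95.1 and 94.3 CPM in naive libraries. The lowest ipsilateral library, number 2, was above the highest naive one, and the log2 fold change was 0.12 (SE 0.05; edgeR adjusted p = 0.972).

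Cox7b, an X-linked complex IV subunit, had 102, 95.1, 100 and 102 CPM in ipsilateral libraries, against 94.5, 91.5, 88.6 and 82.1 CPM in naive libraries (log2 fold change 0.17, SE 0.08). Ndufc2, a membrane-arm subunit of complex I, had 34.3, 36.4, 36.8 and 34.9 CPM in ipsilateral libraries, against 34.1, 33.7, 33.7 and 32.8 CPM in naive libraries (log2 fold change 0.09, SE 0.07). In both, a narrow gap parted the groups. Other members of smallest p were Ndufa6 at 0.14 (SE 0.07), a matrix-arm accessory subunit, Ndufv2 at 0.17 (SE 0.09), the iron-sulfur partner of Ndufv1, and Cox7c at 0.23 (SE 0.13). Without naive 2 the value of Ndufv2 was 0.10, and without naive 3 that of Cox7c was 0.14.

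Ndufa12 was the lower member of smallest p. Its ipsilateral libraries had 20.8, 24.7, 19.96 and 27.1 CPM, against 34.3, 25.0, 31.2 and 25.8 CPM in naive libraries, a log2 fold change of -0.33 (SE 0.14; edgeR adjusted p = 0.972). The left and right libraries of a number were close in this gene, 19.9 CPM on the right and 20.8 CPM on the left for number 1, and 27.0 CPM on the right and 27.1 CPM on the left for number 4. The numbers differed more than the hemispheres did. Ndufa4l2 had 1.77, 2.13, 2.07 and 2.27 CPM in ipsilateral libraries, against 2.79, 3.47, 2.15 and 2.52 CPM in naive libraries (log2 fold change -0.40, SE 0.18), with ipsilateral 4 above naive 3. Without naive 2 its value was -0.27. Of the 9 markers of mural cells, the cell type known for Ndufa4l2, 8 had a negative log2 fold change in this comparison (median -0.21), their summed level was 242 to 269 CPM in ipsilateral and 268 to 294 CPM in naive libraries, and none was at 0 in all libraries. Rgs5, a pericyte marker among them, stood at -0.02 (SE 0.06). The part of mural cells in the Ndufa4l2 value was not tested.

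Cox6b2 was the other member among those of smallest p here. It had 0.23, 0.63, 0.63 and 0.57 CPM in ipsilateral libraries, against 0.61, 0.94, 0.66 and 0.94 CPM in naive libraries. Ipsilateral 2 and 3 lay above naive 1, so the groups overlap, and the log2 fold change was -0.60 (SE 0.33; edgeR adjusted p = 0.972), or -0.36 without ipsilateral 1.

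Other marker lists were also one-sided against naive. None of the 8 endothelial markers was positive (median -0.12; 238 to 265 CPM summed in ipsilateral, 248 to 297 CPM in naive libraries), nor any of the 9 tested meningeal and fibroblast markers (median -0.46; 113 to 177 CPM in ipsilateral, 184 to 224 CPM in naive libraries) or of the 6 tested blood cell markers (median -0.37). Interneuron markers were positive in 8 of 10 (median 0.10; 1254 to 1504 CPM in ipsilateral, 1261 to 1362 CPM in naive libraries) and oligodendrocyte markers in 10 of 10 (median 0.19). No marker passed in edgeR, and their part in the members' values was not tested.

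The hemispheres of CCI mice were compared next, contralateral against ipsilateral. In edgeR 0 of 80 members passed, as did 0% of 15808 genes, and DESeq2 and limma voom called 0 members. The members lay mostly on one side: a negative log2 fold change stood at 65 of 80, with 15 positive, beside 51.1% positive among all genes, and the median was -0.05 (median SE 0.07) for the members and 0.00 for all genes. At an unadjusted p under 0.05 there were 9 lower members, beside 3.78% of all genes, and 1 higher member, beside 4.58%. Without contralateral 1 the number of positive members was 28 of 81 (median -0.04), without ipsilateral 3 it was 23, and without both libraries of number 1 it was 34.

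By complex, the log2 fold change was negative in 30 of 37 members of complex I (median -0.05), 4 of 4 of complex II (-0.05), 7 of 8 of complex III (-0.07), 10 of 14 of complex IV (-0.06) and 14 of 17 of complex V (-0.06). The 7 catalytic core subunits of complex I, which hold the electron path from NADH to ubiquinone, were all negative with a median of -0.12, and the other 30 subunits had a median of -0.04, with 23 negative. The core and Rieske proteins of complex III were negative in 3 of 3 (median -0.12). The 5 genes of the ATP synthase head and its stalk had 4 negative values (median -0.06). Without contralateral 1 the negative counts were 24 of 37 (median -0.02), 4 of 4 (-0.06), 5 of 8 (-0.07), 8 of 15 (-0.00) and 12 of 17 (-0.05) for complexes I to V. The complex I core was then negative in 7 of 7 (median -0.11) and the other subunits of complex I in 17 of 30 (-0.01). The core and Rieske proteins of complex III were then negative in 3 of 3 (-0.14), and the genes of the ATP synthase head and its stalk in 3 of 5 (-0.01).

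Ndufb5 had the smallest p of all members. It stood at 50.5, 50.5, 40.5 and 44.3 CPM in contralateral libraries, against 59.2, 57.9, 56.3 and 55.8 CPM in ipsilateral libraries. Every contralateral library was below every ipsilateral one, and the log2 fold change was -0.30 (SE 0.08; edgeR adjusted p = 0.592). The naive libraries, at 50.7, 49.1, 59.8 and 58.9 CPM, spanned both groups. Part of the Ndufb5 exons (12.3% of the bases) is overlapped by Mrpl47 on the opposite strand, and whether counting used strand is not stated, so reads of the pair may be mixed there.

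Ndufv1 had 86.7, 98.5, 93.4 and 94.8 CPM in contralateral libraries, against 104, 98.7, 99.7 and 107 CPM in ipsilateral libraries, a log2 fold change of -0.13 (SE 0.05; edgeR adjusted p = 0.592). The groups did not overlap, though contralateral 2 and ipsilateral 2 all but met. Ndufs8, an iron-sulfur core subunit, had 45.3, 46.0, 43.3 and 47.5 CPM in contralateral libraries, against 48.3, 51.4, 48.2 and 49.7 CPM in ipsilateral libraries (log2 fold change -0.12, SE 0.05). Ndufb8, of the membrane arm, had 52.0, 54.8, 56.0 and 56.0 CPM in contralateral libraries, against 57.6, 56.8, 61.3 and 58.0 CPM in ipsilateral libraries (log2 fold change -0.10, SE 0.05). These 4 complex I genes were the members without overlap in the lower direction, beside 1.33% of all genes.

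Atp5b had 941, 1059, 951 and 928 CPM in contralateral libraries, against 1091, 1032, 1032 and 1094 CPM in ipsilateral libraries. Contralateral 2 overlapped the ipsilateral range, and the log2 fold change was -0.13 (SE 0.05; edgeR adjusted p = 0.592). Others of smallest p were Ndufa9 at -0.16 (SE 0.06), an accessory subunit where the arms of complex I meet, the complex III core protein gene Uqcrc1 at -0.14 (SE 0.06) and the c-ring gene Atp5g1 at -0.18 (SE 0.08), which was -0.09 without ipsilateral 4. Of these, Uqcrc1 had 248, 266, 240 and 232 CPM in contralateral libraries, against 286, 259, 255 and 285 CPM in ipsilateral libraries, and contralateral 2 was inside the ipsilateral range here too.

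**Figure D4:**
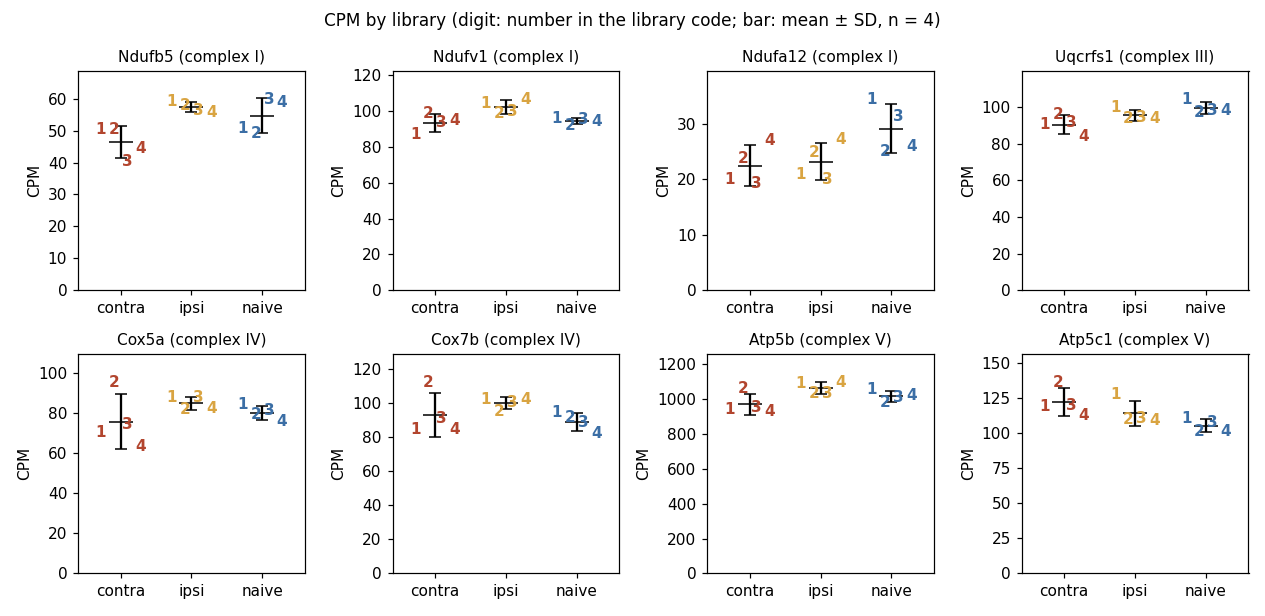
CPM by library for members named in the text; contralateral libraries stand left of ipsilateral and naive ones, each digit is a library and the bar the mean ± SD of 4. Ndufb5 is at 40.5 to 50.5 CPM in contralateral and at 55.8 to 59.2 CPM in ipsilateral libraries, with naive libraries across both ranges.

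Cox6b2 stood on the other side. It had 0.66, 1.06, 0.79 and 1.05 CPM in contralateral libraries, against 0.23, 0.63, 0.63 and 0.57 CPM in ipsilateral libraries, and the groups did not overlap, the one member in the higher direction beside 1.61% of all genes. Its log2 fold change was 0.77 (SE 0.32; edgeR adjusted p = 0.592) at a level that amounts to few reads per library. Cox5a, an early-assembling complex IV subunit, had 70.3, 95.4, 74.3 and 63.6 CPM in contralateral libraries, against 87.9, 82.0, 88.0 and 82.7 CPM in ipsilateral libraries. Contralateral 2 was the highest of all 12 libraries and the other contralateral ones were the 3 lowest, and the log2 fold change over all libraries was -0.17 (SE 0.10; edgeR adjusted p = 0.639). Without contralateral 2 the value was -0.29 (SE 0.06; edgeR adjusted p = 0.0479), with 159 genes called in all, and without both libraries of number 2 it was -0.31 (SE 0.07; edgeR adjusted p = 0.0439), with 286 called. Cox5a, named here after its values were seen, was the 1 member called in any fit that left out libraries. In Cox5a 12.8% of the exonic bases are overlapped by Gm26631 on the opposite strand, so its count is uncertain.

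Taking right minus left within each number, 63 of 80 members were lower on the right for number 1, 27 for number 2, 56 for number 3 and 51 for number 4. The members' median difference in log2 CPM was -0.14, 0.04, -0.09 and -0.06 for numbers 1 to 4. Number 2 thus had the opposite sign, while over all genes the share lower on the right was 48.9 to 51.3%. In 13 members, beside 6.33% of all genes, the right library was lower for all 4 numbers, among them Ndufa9, Ndufb5, Ndufb8, Ndufs8 and Ndufv1 of complex I, Sdha of complex II and Uqcrc2 of complex III. In 1 member, Cox6b2, beside 6.41% of all genes, it was higher for all 4. Ndufb5 had right minus left differences of -0.23, -0.20, -0.48 and -0.33, and Sdha of -0.12, -0.04, -0.10 and -0.14, for numbers 1 to 4.

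**Figure D5:**
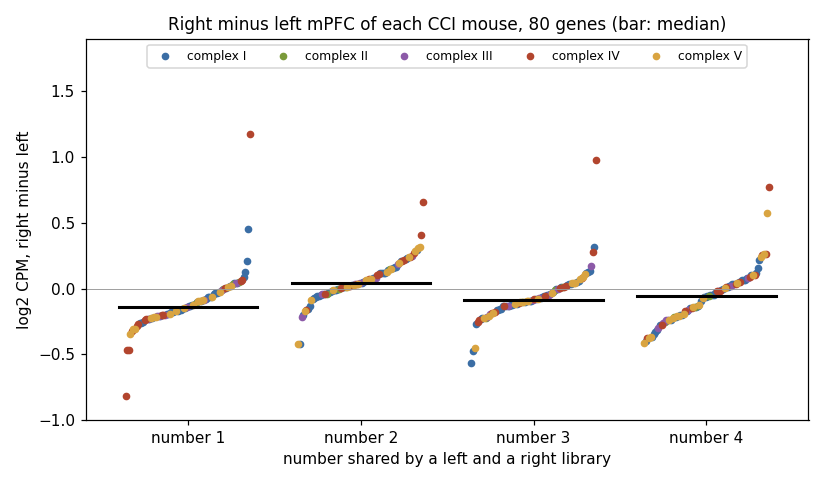
Right minus left difference in log2 CPM of each of the 80 tested members, coloured by complex, for the CCI library pairs numbered 1 to 4; the bar is the median. The medians are -0.14, 0.04, -0.09 and -0.06, so that number 2 lies on the other side of 0.

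Markers of cell types also lay mostly on one side in the contrast of the hemispheres. The 10 interneuron markers had 9 negative log2 fold changes (median -0.20), with a summed level of 1182 to 1381 CPM in contralateral and 1254 to 1504 CPM in ipsilateral libraries. Pvalb, the parvalbumin gene, stood at 17.1, 40.2, 35.9 and 25.2 CPM in contralateral libraries, against 47.3, 32.0, 44.0 and 43.7 CPM in ipsilateral libraries, a log2 fold change of -0.50 (SE 0.22; edgeR adjusted p = 0.595), and number 2 was again the pair with more on the right. The 10 microglia markers were positive in 10 of 10 (median 0.19), with 406 to 576 CPM summed in contralateral and 409 to 428 CPM in ipsilateral libraries. The 10 astrocyte markers were positive too (median 0.15), with 1846 to 4833 CPM in contralateral and 1741 to 4076 CPM in ipsilateral libraries. Right minus left for numbers 1 to 4, the mean centred log2 CPM of microglia markers was 0.14, -0.05, 0.23 and 0.49. For astrocyte markers it was -0.12, -0.32, 0.54 and 0.90, and for interneuron markers -0.37, 0.03, -0.19 and -0.17.

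Other lists leaned the same way. The 9 tested meningeal and fibroblast markers were positive in 9 of 9 (median 0.58; 136 to 257 CPM summed in contralateral, 113 to 177 CPM in ipsilateral libraries), and the 8 striatum markers in 7 of 8 (median 0.37; 183 to 394 CPM in contralateral, 187 to 224 CPM in ipsilateral libraries). Positive values stood at 8 of 8 endothelial (median 0.19), 8 of 9 mural (0.15), 7 of 7 oligodendrocyte precursor (0.19), 10 of 10 oligodendrocyte (0.13), 6 of 6 blood cell (0.23) and 3 of 3 choroid plexus and ependyma markers (0.51). Excitatory neuron markers were positive in 3 of 8 (median -0.11). Right minus left for numbers 1 to 4, the mean centred log2 CPM of striatum markers was 1.40, 0.11, -0.05 and 0.02. Oligodendrocyte markers stood at 0.09, 0.59, -0.39 and -0.04, and endothelial markers at -0.05, -0.11, 0.33 and 0.51. Meningeal and fibroblast (-1.23), mural (-0.43) and blood cell markers (-0.24) were negative for number 2 alone. Oligodendrocyte precursor and choroid plexus and ependyma markers were positive for every number. No marker of these lists was at 0 in all libraries and none passed in edgeR. Their part in the members' values was not tested.

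When the counts of both hemispheres were summed per number, CCI mice could be set against naive mice with 4 animals each, as far as the numbers mark animals. In this fit 0 of 81 tested members and 0% of 16179 genes passed edgeR's test, and DESeq2 and limma voom called 0 members. At an unadjusted p under 0.05, 2 members were higher and 2 lower, beside 1.8% and 2.4% of all genes. A positive log2 fold change stood at 44 of 81 members, beside 50.3% of all genes. The members' median was 0.00 (median SE 0.06; -0.00 with upper quartile factors), and in 77 of the 81 members the log2 fold change was smaller than 0.2 in size. The members of smallest p were Atp5c1 at 0.16 (SE 0.05), Ndufa12 at -0.35 (SE 0.13), Cox7c at 0.26 (SE 0.12) and Uqcrfs1 at -0.10 (SE 0.04), each with an edgeR adjusted p of 1.00. Without naive 3 the value of Cox7c was 0.17.

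Sums of CCI mice and naive libraries did not overlap for Atp5c1 and Cox7c in the higher direction, beside 1.22% of all genes, and for Uqcrfs1 in the lower direction, beside 1.5%. Cox7b stood at 0.11 (SE 0.05), Ndufv2 at 0.11 (SE 0.07), Ndufa4l2 at -0.31 (SE 0.16) and Atp5j2, the f subunit of the membrane part of ATP synthase, at 0.09 (SE 0.06). Without naive 2 Ndufv2 stood at 0.04 and Ndufa4l2 at -0.18, and without naive 3 Atp5j2 stood at 0.06. Cox7a1, tested in this fit alone, stood at -0.26 (SE 0.32). These comparisons and those of each hemisphere share the 4 naive libraries, so that they are not separate tests.

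The genes around the nuclear-encoded subunits were read from lists. The 13 protein-coding genes of the mitochondrial genome are partners of the nuclear subunits in the same complexes. Contralateral against ipsilateral, 13 of 13 had a positive log2 fold change (median 0.11), while 65 of 80 nuclear members had a negative one, and 0 of 13 passed in edgeR. Against naive libraries 12 of 13 were positive in contralateral (median 0.05) and 2 of 13 in ipsilateral libraries (median -0.05). The 3 of smallest p in the comparison of the hemispheres, the complex I genes mt-Nd2 and mt-Nd4 and the complex IV gene mt-Co3, each stood at 0.12 (SE 0.09). By library, mitochondrial transcripts took 8.0 ± 1.16% of the counts in contralateral, 7.31 ± 0.19% in ipsilateral and 7.67 ± 0.54% in naive libraries (SD, n = 4 each), and the groups overlapped. For numbers 1 to 4 the shares were 6.89, 7.17, 8.66 and 9.28% on the right and 7.18, 7.23, 7.59 and 7.24% on the left. The mean centred log2 CPM of the 13 genes differed, right minus left, by -0.08, 0.04, 0.12 and 0.32 for numbers 1 to 4, so that number 1 had the other sign and number 4 the widest gap.

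The enzymes of the tricarboxylic acid cycle, which deliver NADH and succinate, had a negative log2 fold change in 15 of 16 genes in contralateral against ipsilateral libraries (median -0.10), with 0 of 16 passing in edgeR. The isocitrate dehydrogenase genes Idh3a (-0.18, SE 0.07) and Idh3b (-0.15, SE 0.06) and the oxoglutarate dehydrogenase gene Ogdh (-0.16, SE 0.06) had the smallest p. Against naive, 14 of 16 were negative in contralateral (median -0.06) and 14 of 16 positive in ipsilateral libraries (median 0.06). Of 46 assembly factors, which build the complexes without staying in them, 30 were negative in contralateral against ipsilateral libraries (median -0.06). In edgeR 0 passed. Right minus left for numbers 1 to 4, their mean centred log2 CPM was -0.16, 0.17, -0.15 and -0.21. For the tricarboxylic acid cycle genes it was -0.12, 0.01, -0.05 and -0.21, so that number 2 had the other sign in both lists. Cox11, a copper chaperone of complex IV, stood at -0.26 (SE 0.07), Lyrm7, which helps insert the Rieske protein, at -0.36 (SE 0.11) and Sco1, another copper chaperone, at -0.31 (SE 0.14), each at an edgeR adjusted p of 0.592.

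The electron carrier and subunit genes outside the name pattern were negative in 7 of 7 in contralateral against ipsilateral libraries (median -0.04). Right minus left for numbers 1 to 4, their mean centred log2 CPM was -0.13, 0.03, 0.00 and -0.12. Among them Cyc1, cytochrome c1 of complex III, had 111, 125, 120 and 111 CPM in contralateral libraries, against 126, 123, 130 and 133 CPM in ipsilateral libraries (log2 fold change -0.14, SE 0.05; edgeR adjusted p = 0.592). Cycs, the cytochrome c gene, stood at -0.04 (SE 0.11). Regulators of mitochondrial gene expression gave no one-sided count, 8 of 14 negative with a median of -0.02. The 3 of smallest p, the estrogen-related receptor genes Esrrg (-0.37, SE 0.17) and Esrra (-0.17, SE 0.11) and the PGC-1-related coactivator gene Pprc1 (-0.21, SE 0.11), did not pass in edgeR. In this list Ppargc1a, the coactivator PGC-1α, stood at -0.06 (SE 0.09), Nrf1 at 0.01 (SE 0.10) and Tfam, the mitochondrial transcription factor, at -0.02 (SE 0.07). Cytosolic ribosomal protein genes, which are also small and abundant transcripts, were positive in 68 of 78 (median 0.10) in the same comparison.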

How the data were processed

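RNA was taken from mouse mPFC with a total RNA kit and made into libraries with an mRNA sample preparation kit, per the labels' protocols. HISAT2 2.0.4 and GRCm38 (also called mm10) are listed in the processing notes of the submitters, with no role given. How reads were counted, with which annotation release and whether by strand is not given in the sources used here. The authors deposited 1 table with the raw count of each gene in each library and, beside it, FPKM values, so named per the file headers. Every column of per-library values was matched to a library by its code. A second table with the same counts was not used.

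Differences were tested on the counts with edgeR 4.0.16 in R 4.3.3 (TMM factors, filterByExpr by group, robust quasi-likelihood fits, two-sided tests, Benjamini-Hochberg adjustment over all tested genes, threshold 0.05). All 12 libraries entered 1 fit with 3 groups (15808 genes tested). A second fit summed the left and right libraries of each number and compared 4 sums with 4 naive libraries (16179 genes). CPM use TMM factors, a library's mean centred log2 CPM uses a prior count of 2, and SE were taken from the log2 fold change and its F statistic. Alternatives were RLE and upper quartile factors, no filter, DESeq2 1.42.0, limma 3.58.1 with voom, fits of only the groups compared, a replicate block, and leaving out each library or number in turn. A count's precision is set by a depth of 16.1 to 20.6 M counts per library (M, mega); FPKM were used only to compare levels between genes. The fits were also run on simulated data, with libraries drawn independently and planted changes larger than those of most members. That run does not bear on changes of the members' size or on a pairing of the hemispheres.

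The members, the lists of other genes and the tests were chosen with earlier results of these data known. Named members are the 8 of smallest unadjusted p in each comparison, the 2 of highest mean FPKM in each complex and the listed isoform sets. Others are named from counts of libraries without overlap. From each other list up to 3 genes of smallest p could be named, and Pvalb, Rgs5, Ppargc1a, Nrf1, Tfam, Cycs and Cyc1 in every case. Shared 50-base words and overlapping exons were counted in GENCODE M21, where all 84 members matched by Ensembl ID: 13 members share over 10% of their 50-base words with another gene and 11 have over 10% of their exonic bases overlapped. Promoter sequences are RefSeq's, build GRCm38.p6. Some values of single genes are not reported here.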

Additional observations from a re-analysis of the deposited data

Results flagged for a closer look

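Of 135 sets of 4 libraries examined (39 named members, the mean of all members and the mean of each complex, in each group), 9 held a library whose gap to the nearest other library was a large part of the whole range, above the 95% critical value of Dixon's test. About 1 in 20 such sets exceed it by chance, so that close to this number of sets would be found with no library unusual.

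Ipsilateral 1 was set apart for Atp5c1, with 128 CPM and the others at 109 to 111 CPM, for Uqcrfs1, with 99.8 CPM and the others at 93.9 to 94.6 CPM, and for Cox6b2, with 0.228 CPM and the others at 0.568 to 0.633 CPM. Contralateral 1 was set apart for Cox7a1, with 0.164 CPM and the others at 0.563 to 0.623 CPM, and for the mean of complex IV, at -0.192 and the others at 0.0619 to 0.0869 on the centred log2 scale. This is the library with the high level of striatum markers; the part of that in its complex IV value was not tested.

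Cox8b was counted in contralateral 4 at 0.0554 CPM, a single count, and in no other contralateral library. Among naive libraries, Ndufa8 stood at 72.2 CPM in number 4 and at 66.5 to 66.9 CPM in the others, Ndufs8 at 44.7 CPM in number 3 and at 48.6 to 49.3 CPM in the others, and Uqcrfs1 at 104 CPM in number 1 and at 97.2 to 98.4 CPM in the others.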

How the results depend on the processing

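The log2 fold changes of the 8 members of smallest p in each comparison kept their direction and their side of the threshold in all 448 values with a library or number left out and all 240 under other settings; of other members only Cox5a is given singly. Outside the fits with libraries left out, 0 members were called under any setting run. The number of genes called, 0 at first in each comparison, became 3, 7 and 33 with DESeq2 for contralateral against naive, ipsilateral against naive and CCI against naive mice, 5 without a filter for CCI against naive mice, and 1 and 7 with only the groups compared for contralateral and ipsilateral against naive. A replicate block by number gave 1, 1 and 1 for contralateral, ipsilateral and CCI mice against naive and 0 for contralateral against ipsilateral. The block with only the groups compared, chosen after seeing the data, gave 2 and 6 for contralateral and ipsilateral against naive. Against naive the block joins CCI and naive libraries of the same number, which come from different mice, so it stands for no pairing there. Same-numbered contralateral and ipsilateral libraries correlated at 0.01, -0.14, 0.04 and 0.06 in their deviations from the group means, and none correlated best with its own number; over the members alone the values were 0.12, 0.10, 0.12 and 0.10. The number was not a factor in the fit of the 12 libraries, as no label states the pairing. The sums of CCI mice and the right minus left differences do rest on the number, and these correlations do not show that same-numbered libraries pair.

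With a library or number left out, genes called ranged from 0 to 3 for contralateral against naive, 0 to 4 for ipsilateral against naive, 0 to 286 for contralateral against ipsilateral and 0 to 6 for CCI against naive mice. Leaving out single libraries of the 2 hemispheres and naive mice gave 0 to 2, 0 to 2 and 0 to 159 for the first 3. Members called ranged from 0 to 1 for contralateral against ipsilateral and positive members there from 14 to 34 (15 without contralateral 2, 28 without contralateral 1). Positive members ranged from 21 (without naive 3) to 43 (without naive 1) for contralateral against naive, from 52 to 63 for ipsilateral against naive, and from 31 to 57 of 81 for CCI against naive mice. The members' median ranged from -0.05 to 0.00, from 0.03 to 0.06, from -0.08 to -0.04 and from -0.01 to 0.03 for contralateral against naive, ipsilateral against naive, contralateral against ipsilateral and CCI against naive mice; the causes were not tested.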
